A study of Mus musculus with 14 samples.

Results

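Prox1, Zbtb20, Lhx2, Lhx9, Emx1, Emx2 and Lef1 are transcription factor genes that pattern the embryonic hippocampus and its fields, and their transcripts were followed in 14 RNA-seq libraries of mouse hippocampus. They were chosen by name, with no threshold on their values, and all 7 were found among the 21320 gene symbols matched to the 59796 assembled loci of the gene table, 1 locus each, and all 7 passed the filter on low values. The libraries came from embryos at embryonic day 16 to 18. Of these, 3 were from 189N3 mice, which carry a bacterial artificial chromosome with an extra copy of Dyrk1a, 4 were from Dp(16)1Yey/+ mice, in which the stretch of chromosome 16 homologous to human chromosome 21, Dyrk1a included, is present in 3 copies, and 3 and 4 were from the wild-type littermates of each line. Each model is a single transgenic line whose extra copies are carried in the germline and thus not limited to the hippocampus. For the cell cultures of the study heterozygous mice were crossed with C57BL6 mice, and for these embryos the strain is not given in the sources used here. The question put by the design is whether the extra copies change transcript levels in the forming hippocampus.

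The hippocampus arises from the medial edge of the dorsal telencephalon, next to the cortical hem, a strip of tissue that secretes Wnt and Bmp proteins. Emx1 and Emx2 are homeobox genes of the dorsal telencephalon, and Emx2 is needed for the growth of the hippocampus and its dentate gyrus. Lhx2 and Lhx9 belong to the LIM homeodomain family, and Lhx2 keeps cortical progenitors from taking the fate of the hem. Lef1 encodes a DNA-binding partner of beta-catenin that carries the Wnt signal of the hem to its target genes, and without it the dentate gyrus does not form properly. Zbtb20 encodes a zinc finger repressor that gives pyramidal neurons of Ammon's horn their hippocampal identity, and Prox1 encodes the homeodomain factor that specifies and maintains dentate granule cells.

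In neither model did a member gene pass the test against wild-type littermates. The largest difference was that of Prox1, with a mean of 423 ± 262 (n = 4, SD) for Dp(16)1Yey/+ and of 681 ± 178 for the littermates, in normalized fragments, which are fragments divided by 1 size factor for each library. The groups overlapped. Within groups, the coefficient of variation ran from 1.61% (Emx1, littermates of the 189N3 line) to 78.4% (Lhx9, Dp(16)1Yey/+ mice). The medians of named loci in these groups were 11.6% and 22.2%. Within this spread Prox1, Zbtb20, Lhx9 and Emx2 moved together, and Lef1 and Lhx2 followed some of them. No pair with Emx1 passed the test with all libraries kept. Replicate numbers start at 0, following the sample titles.

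The libraries held 20809135 to 29098454 fragments, and the least abundant member, Emx1, was still read from 62 fragments or more in each library. Dyrk1a stood at 4688 ± 1042 normalized fragments (n = 3, SD) in 189N3 mice against 2517 ± 430.0 in the littermates, and the groups did not overlap. In Dp(16)1Yey/+ mice it stood at 3387 ± 1111 (n = 4, SD) against 2808 ± 424, and the groups overlapped. The median log2 difference of 85 loci of the triplicated region from the littermate mean was 0.69, 0.58 and 0.40 in Dp(16)1Yey/+ replicates 0, 2 and 3 but 0.10 in the library labelled replicate 1, so the fold changes of the members and the medians of the gene lists in this model are also given without that library. For isoforms and for the spread between libraries it was kept. Among the wild-type littermates of the Dp(16)1Yey/+ line, replicates 0 and 1 were nearly alike, as were replicates 2 and 3. Their squared differences were 1.66 and 2.07 times the counting noise in the median locus, where all other within-group pairs gave 8.90 to 85.3 times, so whether these are 4 embryos or repeated libraries of fewer cannot be told apart from these values. If the pairs are repeats, n for this group is 2 and not 4, and its SDs, coefficients of variation and smallest possible p-values would not hold. The tests of the members are also given with each pair averaged. Defining genes of the forebrain were present in every library, with the pallial neuron marker Neurod6 at group means between 9772 and 17147, and 8 markers of hindbrain and hypothalamus together gave between 9.93 and 30.3.

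The promoters of Prox1, Zbtb20, Lhx9 and Emx2, the 4 members among which every pair passed the correlation test by both r and rho given below, are shown first, so that the sequences upstream of genes with a shared pattern can be compared. Each is the 250 bases before a start site in RefSeq on the GRCm38 (mm10) assembly, read 5′ to 3′ on the strand of the gene. The table held 2 start sites for Prox1, of which the outer one is shown. Capitals mark the GC box GGGCGG and the TATA box TATAAA on either strand. The Prox1 window is chr1:190170828-190171077 on the minus strand, the Zbtb20 window chr16:43247034-43247283 on the plus strand, the Lhx9 window chr1:138842445-138842694 on the minus strand and the Emx2 window chr19:59458440-59458689 on the plus strand. In the GENCODE vM21 annotation Zbtb20 spans chr16:42875881-43642602 and Lhx9 chr1:138825186-138848577. Their windows thus belong to start sites inside the gene and not to its annotated 5′ end. The Emx2 window also lies inside its gene, near the 5′ end at 59458372.
Prox1: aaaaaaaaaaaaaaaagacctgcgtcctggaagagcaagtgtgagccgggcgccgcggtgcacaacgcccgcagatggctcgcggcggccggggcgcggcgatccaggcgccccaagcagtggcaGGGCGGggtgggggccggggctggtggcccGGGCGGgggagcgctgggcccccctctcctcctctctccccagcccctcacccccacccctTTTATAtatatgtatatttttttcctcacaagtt
Zbtb20: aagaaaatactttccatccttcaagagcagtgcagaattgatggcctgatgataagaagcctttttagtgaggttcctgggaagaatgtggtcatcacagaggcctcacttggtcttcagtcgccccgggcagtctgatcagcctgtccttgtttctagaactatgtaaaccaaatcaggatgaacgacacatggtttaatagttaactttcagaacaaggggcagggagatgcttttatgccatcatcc
Lhx9: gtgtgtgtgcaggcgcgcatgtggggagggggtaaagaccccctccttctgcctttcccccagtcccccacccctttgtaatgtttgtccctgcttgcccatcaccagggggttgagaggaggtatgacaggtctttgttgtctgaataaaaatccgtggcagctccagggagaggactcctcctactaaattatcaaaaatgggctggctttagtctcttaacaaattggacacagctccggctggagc
Emx2: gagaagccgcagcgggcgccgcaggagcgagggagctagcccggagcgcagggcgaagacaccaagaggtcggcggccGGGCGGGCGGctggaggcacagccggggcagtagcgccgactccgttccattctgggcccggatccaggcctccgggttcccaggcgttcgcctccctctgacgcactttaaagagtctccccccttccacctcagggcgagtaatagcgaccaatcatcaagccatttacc

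These windows, of which those of Zbtb20 and Lhx9 are at internal start sites, were unlike each other in base composition. Prox1 and Emx2 had 64.8% and 67.2% G or C with 20 and 24 CpG dinucleotides, and Zbtb20 and Lhx9 had 44.8% and 53.6% with 3 and 4, where the median over all 32851 windows was 52.4% and 6. Emx2 and Prox1 each held 2 GC boxes, which overlapped in Emx2, and Prox1 also held a TATA box read on the other strand, its first base 34 bases before the start site. Over the whole window of 300 bases, which reaches 50 bases past the start site, the table held 12 windows for the 7 members. Each motif was searched on both strands. The GC box was in 8 of them, from Emx1, Emx2, Lef1, Lhx2 and Prox1, and in 35.7% of all windows, and the TATA box in 2 of them, from Lef1 and Prox1, and in 13.6% of all. Overlapping Lef1 windows share the GC box at chr3:131110253-131110282, so the 8 windows do not hold separate sites. The Wnt-response letters CTTTGAT, the core bound by Lef1 and its relatives, were in none of the 12 windows and in 3.73% of all. TAATTA, the core bound by many homeodomain proteins of the LIM and Emx kind, was in 1 member window and in 5.29% of all. That window is the one of Emx2, where the core, in capitals below, begins 36 bases after the start site at chr19:59458710-59458739, and it is shown as the only homeodomain core in the set.
Emx2 core: tatgtgatccccgcacTAATTAggctcatg

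Emx2 lies on chr19:59458372-59465357 on the plus strand in the GENCODE vM21 annotation of GRCm38. In 189N3 mice its normalized fragments were 321, 304 and 340, and in the littermates 428, 310 and 307. In Dp(16)1Yey/+ mice replicates 0 to 3 gave 343, 274, 479 and 237, and in the littermates 457, 461, 295 and 332. Both genotypes overlapped in both lines, and the highest of the 14 libraries was 2.02 times the lowest, the narrowest range of the 7 genes. The log2 fold change was -0.10 (SE 0.24) in 189N3 mice and -0.24 (SE 0.24) in Dp(16)1Yey/+ mice, with adjusted p-values of 1.000 and 0.909 in limma.

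Emx1, the sister gene on chr6:85187438-85204462 on the plus strand, had the tightest values of the 7 among the littermates of the 189N3 line. It gave 125, 50.6 and 120 in 189N3 mice against 108, 106 and 105 in their littermates, the latter with a coefficient of variation of 1.61%, smaller than that of all but 1.55% of 11244 named loci. It gave 167, 162, 143 and 122 in Dp(16)1Yey/+ mice and 148, 140, 126 and 154 in their littermates. One 189N3 library, replicate 1, was low, and each littermate library of the Dp(16)1Yey/+ line was above each littermate library of the 189N3 line. The log2 fold change was -0.22 (SE 0.33) in 189N3 mice, where leaving out each library in turn moved it from -0.44 to 0.21, and 0.06 (SE 0.17) in Dp(16)1Yey/+ mice, with adjusted p-values of 1.000 and 0.956 in limma.

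Lhx2 lies on chr2:38339281-38369733 on the plus strand. Its values were 1284, 879 and 1505 in 189N3 mice and 1323, 1184 and 935 in the littermates. In Dp(16)1Yey/+ mice they were 1867, 1164, 2114 and 1039, and in the littermates 1814, 1688, 1501 and 1712. The littermates of the second line were tight, with a coefficient of variation of 7.77%, while the Dp(16)1Yey/+ libraries fell on both sides of them, replicates 0 and 2 above and replicates 1 and 3 below every littermate. The log2 fold changes were 0.07 (SE 0.26) and -0.18 (SE 0.23), with adjusted p-values of 1.000 and 0.911 in limma. Read per kilobase of the longest coding transcript, Lhx2 was the most abundant of the 7 genes, at 503 ± 132 normalized fragments per kb (n = 14, SD). Zbtb20 followed at 163 ± 79.0 per kb, then Lhx9 at 138 ± 63.0, Emx2 at 120 ± 26.1, Emx1 at 81.3 ± 19.2, Prox1 at 70.4 ± 25.5 and Lef1 at 48.7 ± 22.1. Neighbours in that order differed by less than the larger of their SDs, except for the steps from Lhx2 to Zbtb20 and from Emx2 to Emx1. Per kilobase of all annotated exons, Emx2 at 116 came before Lhx9 at 71.5 and Prox1 at 66.4 before Emx1 at 58.1.

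Lhx9, the second LIM homeodomain gene, lies on chr1:138825186-138848577 on the minus strand. It gave 390, 673 and 648 in 189N3 mice and 711, 652 and 378 in the littermates. In Dp(16)1Yey/+ mice it gave 498, 403, 1451 and 328, and in the littermates 1062, 1003, 648 and 662. Replicate 2 was the highest of the 14 libraries, while the other 3 Dp(16)1Yey/+ libraries were below each of the 4 littermates. For this model the log2 fold change was -0.56 (SE 0.40, adjusted p-value 0.909 in limma), -1.02 (SE 0.24, adjusted p-value 0.368) without replicate 2 and -0.41 (SE 0.44) without the library labelled replicate 1. In 189N3 mice it was -0.01 (SE 0.30).

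Zbtb20, the most abundant member per gene, spans 767 kb of chr16:42875881-43642602 on the plus strand, and its end lies 31.9 Mb before the region triplicated in Dp(16)1Yey/+ mice, so the gene itself is in the usual copy number. In 189N3 mice it gave 3277, 6979 and 3589 normalized fragments, and in the littermates 5882, 3707 and 3596. In the Dp(16)1Yey/+ model it gave 3442, 1789, 6896 and 2228, and in the littermates 7734, 7398, 2254 and 2546. In each group 1 or 2 libraries were well above the others, so the genotypes overlapped throughout. The coefficient of variation was 64.5% in Dp(16)1Yey/+ mice, where the median of named loci was 22.2%, and in their littermates 98.9% of loci were less variable than Zbtb20. The log2 fold changes were 0.02 (SE 0.30) and -0.45 (SE 0.49), with adjusted p-values of 1.000 and 0.909 in limma, the latter running from -0.83 (SE 0.44) without replicate 2 to -0.16 without littermate replicate 0, with -0.18 without the library labelled replicate 1.

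Lef1, the Wnt effector, lies on chr3:131110471-131224356 on the plus strand. It gave 108, 144 and 114 in 189N3 mice and 205, 124 and 96.7 in the littermates. Among Dp(16)1Yey/+ mice it gave 116, 153, 298 and 121, and in the littermates 332, 274, 138 and 151. The high libraries, replicate 2 of the Dp(16)1Yey/+ mice and replicates 0 and 1 of their littermates, were the ones that were high for Zbtb20 and Lhx9. The log2 fold changes were -0.15 (SE 0.30) and -0.39 (SE 0.35), with adjusted p-values of 1.000 and 0.909 in limma. The latter rests on single libraries, from -0.69 (SE 0.31, unadjusted p-value 0.0483, adjusted p-value 0.804 in limma) without replicate 2 to -0.17 without littermate replicate 0.

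Prox1, the dentate granule cell factor, lies on chr1:190118035-190170714 on the minus strand. It gave 459, 607 and 589 in 189N3 mice and 774, 579 and 373 in the littermates, with a log2 fold change of -0.01 (SE 0.28). In the Dp(16)1Yey/+ group it gave 572, 161, 712 and 248, and in the littermates 856, 810, 505 and 553. Replicates 1 and 3 of the Dp(16)1Yey/+ mice were the lowest of the 14 libraries, at 137 and 246 fragments before scaling, whereas replicates 0 and 2 were within the range of the littermates. For Prox1 in this model the log2 fold change was -0.89 (SE 0.42, adjusted p-value 0.909 in limma), and exact two-sided permutation of the 8 libraries gave p = 0.171, where 0.0286 is the smallest that 4 against 4 allow. Leaving out each library in turn moved it from -1.22 without replicate 2 to -0.51 (SE 0.35) without the library labelled replicate 1. With the nearly alike littermate libraries averaged it was -0.89 (SE 0.53). The unadjusted p-value of the fit to all 8 libraries was 0.0543 in limma. In bulk tissue, fewer cells of a type and less RNA per cell cannot be told apart.

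**Figure D1:**
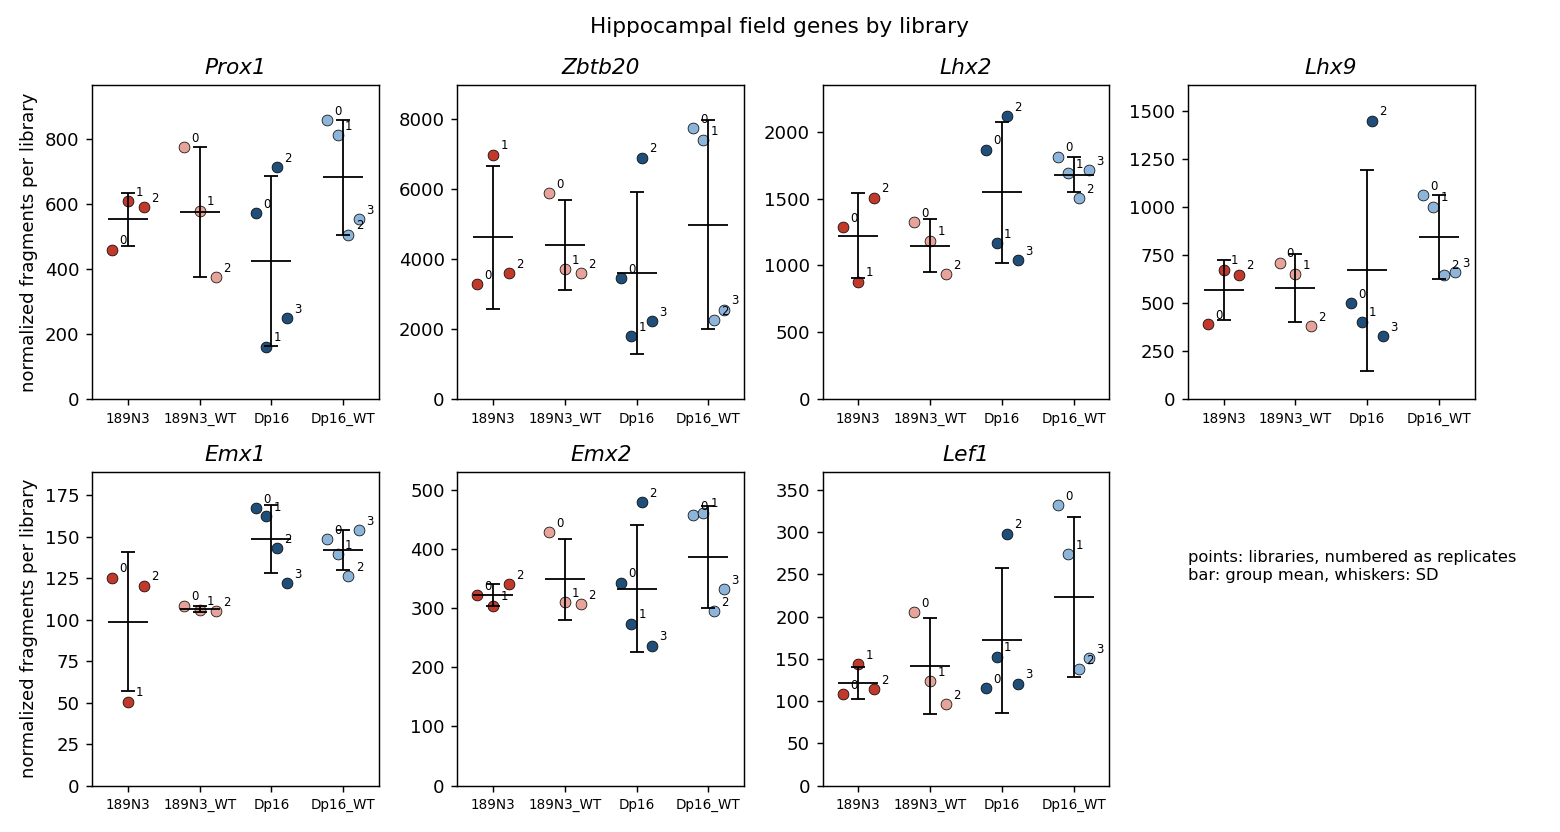
Normalized fragments of the 7 genes (y axis, from 0, one panel for each gene) in the 14 libraries by group (x axis, where Dp16 is Dp(16)1Yey/+ and WT the wild-type littermates of each line), each point 1 library labelled with its replicate number, with a bar for the group mean and whiskers for the SD. The points of the 2 genotypes overlap in both lines for each gene, and Lhx9 in Dp(16)1Yey/+ replicate 2 stands at 1451 above every other library.

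Taken by comparison, 0 of 7 member genes passed in 189N3 mice (limma, adjusted p-value under 0.05), where 0 of 35899 loci did (0%), and 0 of 7 had an unadjusted p-value under 0.05, where 1.87% of loci did. The exact two-sided permutation p-values of the 7 genes lay between 0.80 and 1, and 0.10 is the smallest that 3 against 3 libraries allow. Of the 7 genes, 5 were lower and 2 higher. Their median log2 fold change was -0.01 beside -0.04 over all loci tested and 0.04 over named loci alone. No sign was stable for any of them, since leaving out some library turned the direction of each of the 7. For Dp(16)1Yey/+ mice 0 of 7 passed as well, where 0 of 36024 loci did (0%), and 0 of 7 had an unadjusted p-value under 0.05, where 3.53% of loci did. Of the other tools, edgeR and DESeq2 also called 0 of 7 members in both models, with 0 and 15 calls over all loci in 189N3 mice and 0 and 8 in Dp(16)1Yey/+ mice. In the latter model 6 of 7 genes were lower and Emx1 was higher. Their median log2 fold change was -0.39 beside 0.03 over all loci and -0.05 over named loci alone. Without the library labelled replicate 1 it was -0.18, with the same 6 lower. Without that library the log2 fold change was -0.37 for Lef1, -0.16 for Emx2, -0.07 for Lhx2 and 0.01 for Emx1. Leaving out replicate 2 gave -0.43 for Emx2 and -0.35 for Lhx2, and leaving out replicate 3 gave -0.09 for Emx2, -0.01 for Lhx2 and -0.31 for Lhx9. With the nearly alike littermates averaged, the log2 fold change was -0.89 (SE 0.53) for Prox1, -0.56 (SE 0.51) for Lhx9, -0.45 (SE 0.55) for Zbtb20, -0.39 (SE 0.42) for Lef1, -0.24 (SE 0.32) for Emx2, -0.18 (SE 0.32) for Lhx2 and 0.05 (SE 0.25) for Emx1, with adjusted p-values of 1.000 in limma. Exact permutation p-values lay between 0.171 and 0.629, between 0.343 and 0.971 without the library labelled replicate 1, and between 0.267 and 0.80 with the littermate pairs averaged, where 0.0667 is the smallest possible. None of the 7 had groups that did not overlap, where 4.98% of loci did in 189N3 mice (2.99% lower and 1.99% higher) and 2.45% in Dp(16)1Yey/+ mice (0.736% lower and 1.72% higher).

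**Figure D2:**
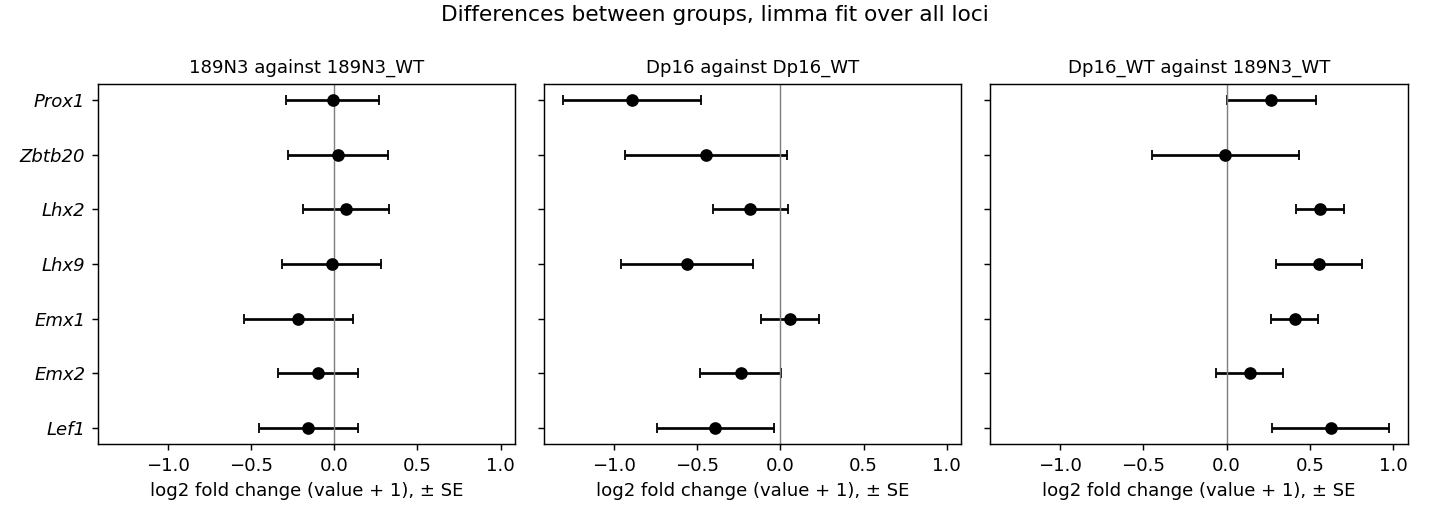
Log2 fold change of each gene with its standard error from limma (x axis) in 3 panels, for each model against its littermates and for the wild-type groups against each other (Dp16 is Dp(16)1Yey/+). Each of the 189N3 values lies within 1 standard error of 0, and in Dp(16)1Yey/+ mice the value of Prox1, -0.89, is the farthest from 0.

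The difference between the 2 models, tested as the interaction over all 14 libraries, was also not called for a member (0 of 7, with 0 of 36045 loci called, 0%, and 2.66% with an unadjusted p-value under 0.05). It was -0.88 (SE 0.58) for Prox1, -0.55 (SE 0.57) for Lhx9, -0.47 (SE 0.68) for Zbtb20, between -0.25 and -0.14 for Lhx2, Lef1 and Emx2, and 0.27 (SE 0.37) for Emx1, with adjusted p-values between 0.922 and 0.943 in limma. The value of Prox1 was -0.50 if the library labelled Dp(16)1Yey/+ replicate 1 was left out.

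Lhx2 and Emx1 had wild-type values that did not overlap between the lines, and neither passed the test. Between the wild-type groups, which share no genotype difference but do differ in line, litter and perhaps library batch, which cannot be told apart, the littermates of the Dp(16)1Yey/+ line had 1679 ± 130.4 normalized fragments of Lhx2 (n = 4, SD) against 1147 ± 196 (n = 3, SD), and 142 ± 11.98 of Emx1 against 106 ± 1.71. For both genes each library of one group was above each of the other, where 14.7% of 36047 loci did so in this direction and 25.5% in either (10.8% lower), so that 2 of 7 genes are near the background. In the transgenic mice of the lines Lhx2 and Emx1 both overlapped. The log2 difference was 0.56 (SE 0.14, adjusted p-value 0.0580 in limma) for Lhx2 and 0.41 (SE 0.14, adjusted p-value 0.112) for Emx1. The exact two-sided permutation p-value was 0.0286 for Lhx2, the smallest possible, and 0.0571 for Emx1. With the smaller tail doubled instead, the permutation p-value was 0.0571 for both. In limma 0 of 7 members passed, with 3.75% of loci called (1351, but 28 with the nearly alike libraries averaged and 13 to 78 with any 1 of the 7 libraries left out), and 2 of 7 had an unadjusted p-value under 0.05, with 26% of loci. Lhx2 passed under 3 other settings, with adjusted p-values of 0.0439 over loci with a mean of at least 100, 0.0369 over named loci alone and 0.0358 in DESeq2, and stood at 0.254 with the nearly alike littermate libraries averaged, where Emx1 stood at 0.356 and the exact permutation p-value was 0.10 for both, the smallest possible. Of the other genes, Lef1 (0.63, SE 0.35) and Lhx9 (0.55, SE 0.26) had differences as large with wider errors, and Zbtb20 one of -0.01 (SE 0.44). These values share the littermates of the Dp(16)1Yey/+ line with the comparison in that model.

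By group mean, 6 of the 7 genes were highest in a wild-type group, that of the Dp(16)1Yey/+ line, and Emx1 was highest in Dp(16)1Yey/+ mice. Prox1 and Zbtb20 were lowest in Dp(16)1Yey/+ mice, Lhx2 in the littermates of the 189N3 line, and Lhx9, Emx1, Emx2 and Lef1 in 189N3 mice. All group ranges overlapped for Prox1, Zbtb20, Lhx9, Emx2 and Lef1. For Lhx2, 5 of the 6 pairs of groups overlapped, and for Emx1 3 of 6.

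Within groups, most of the members moved together, as did many other loci. On the log2 scale, the mean deviation of the 7 genes from their group means was 0.78 in Dp(16)1Yey/+ replicate 2, with 6 of 7 genes above, 0.39 and 0.29 in littermate replicates 0 and 1 of that line, and 0.35 in littermate replicate 0 of the 189N3 line, with all 7 above. It was -0.48 in Dp(16)1Yey/+ replicate 3, -0.42 in littermate replicate 2 and -0.33 in littermate replicate 2 of the 189N3 line, with 0 of 7 above, and -0.41 in the library labelled Dp(16)1Yey/+ replicate 1. High and low libraries occurred in both genotypes of the Dp(16)1Yey/+ line.

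Marker and pathway lists moved with or against the members in some libraries and not in others. Their part in the spread of the members was not tested. In littermate replicates 0 to 3 of the Dp(16)1Yey/+ line the mean deviation was 0.57, 0.43, -0.63 and -0.38 for 13 genes of the hem and medial pallium and 0.32, 0.18, -0.36 and -0.14 for 6 Cajal-Retzius genes, high and low in the same libraries as the members. Over the same 4 libraries it was -1.68, -1.24, 1.41 and 1.51 for striatal genes and -0.76, -0.81, 0.73 and 0.83 for interneuron genes, the other way round. In Dp(16)1Yey/+ replicate 2, the highest for the members, the hem genes stood at 0.76 and the Cajal-Retzius genes at 0.53. The striatal genes stood at -0.77 there and the interneuron genes at -0.70. Other libraries did not all follow this. In Dp(16)1Yey/+ replicate 3, with the members at -0.48, the striatal and interneuron genes were also low, at -0.18 and -0.13. In the library labelled replicate 1, with the members at -0.41, the hem genes stood at -0.03 and the striatal genes at 0.41. In replicate 0, with the members at 0.12, the hem genes stood at -0.26 and the striatal genes at 0.54. In 189N3 replicate 2 the members stood at 0.11 and the striatal genes at 1.00.

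**Figure D3:**
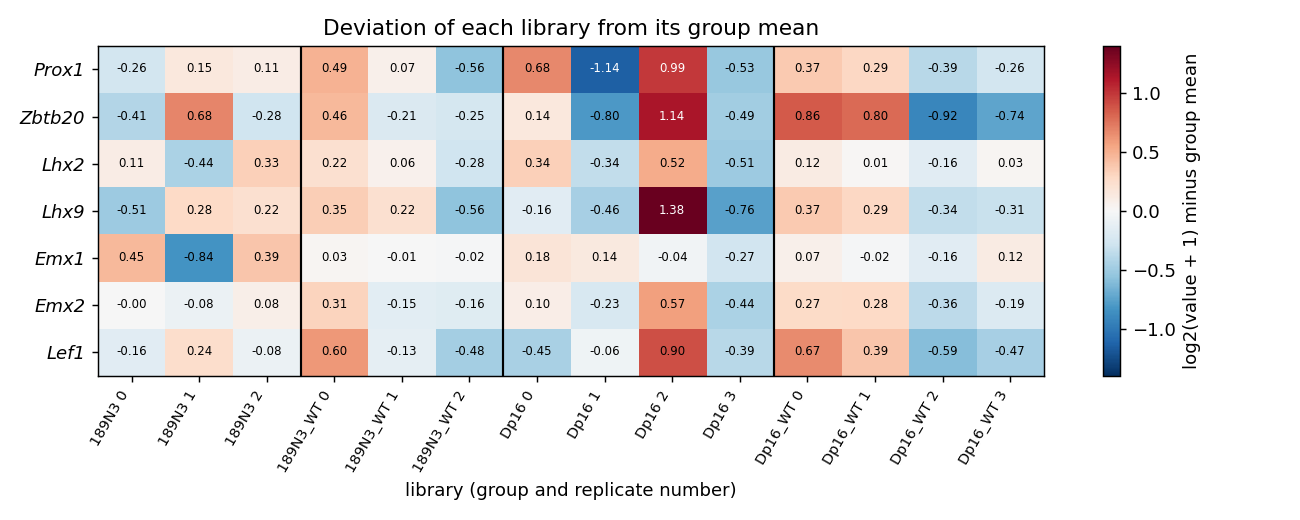
Deviation of log2(value + 1) from the mean of the group (colour and printed number) for each gene (rows) in each library (columns, where Dp16 is Dp(16)1Yey/+). Dp(16)1Yey/+ replicate 2 and littermate replicates 0 and 1 of that line are high for most genes, with 1.38 as the largest value, and the row of Emx1 does not follow the others.

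Over the 21 pairs of genes, the correlation of these deviations was above 0 in 17 and passed for 10, all positive (Pearson's r, permutation within groups, adjusted over the 21 pairs), and 8 of these also passed by Spearman's rho. Such values were common in these libraries. Among all pairs of the 11244 named loci, 73.9% had r above 0 and 16.6% had r at or above 0.77, the smallest of the 10, where 47.6% of the member pairs did. Whether the members differ from other loci in this was not tested. Zbtb20 and Emx2 had r = 0.85 (rho 0.85, permutation adjusted p = 0.0154 and 0.0173). Prox1 had r = 0.81 with Zbtb20 (rho 0.83, permutation adjusted p = 0.00913 and 0.00924), 0.82 with Lhx9 (rho 0.85, p = 0.0127 and 0.00924) and 0.83 with Emx2 (rho 0.90, p = 0.0193 and 0.0219). Lhx9 had r = 0.81 with Zbtb20 (rho 0.81, permutation adjusted p = 0.00913 and 0.00924), 0.84 with Emx2 (rho 0.83, p = 0.00913 and 0.0128) and 0.84 with Lef1 (rho 0.81, p = 0.0105 and 0.0145). Lhx2 and Emx2 had r = 0.77 (rho 0.76, permutation adjusted p = 0.00913 and 0.0173). Lef1 had r = 0.86 with Zbtb20 and 0.84 with Emx2 (permutation adjusted p = 0.0127 and 0.0216), but its rho of 0.75 and 0.74 did not pass (p = 0.0549 and 0.0585). Each of the 6 pairs among Prox1, Zbtb20, Lhx9 and Emx2 thus passed by both measures, and by r alone so did each of the 6 with Lef1 in the place of Prox1.

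Without the 2 libraries farthest from the median of either gene, r stayed between 0.58 and 0.82 for these 10 pairs, the lowest being that of Lhx2 and Emx2. Within the lines it was larger in the 8 libraries of the Dp(16)1Yey/+ line than in the 6 of the 189N3 line for several pairs, at 0.94 and 0.34 for Zbtb20 with Emx2 and at 0.94 and 0.44 for Lhx9 with Emx2, and smaller for Prox1 with Lhx9, at 0.79 and 0.92. With the nearly alike littermate libraries averaged, 7 pairs passed by r and 6 by both measures, and 13 by both without the library labelled Dp(16)1Yey/+ replicate 1. With all libraries kept, Emx1 passed with no other member, with r between -0.27 with Zbtb20 and 0.58 with Lhx2. Without the library labelled Dp(16)1Yey/+ replicate 1, Emx1 passed with Lhx2 (r = 0.69, rho 0.75, permutation adjusted p = 0.0488 and 0.0342). In the 189N3 line Zbtb20 and Emx1 had r = -0.81 and Lhx2 and Emx1 r = 0.81, over 6 libraries.

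**Figure D4:**
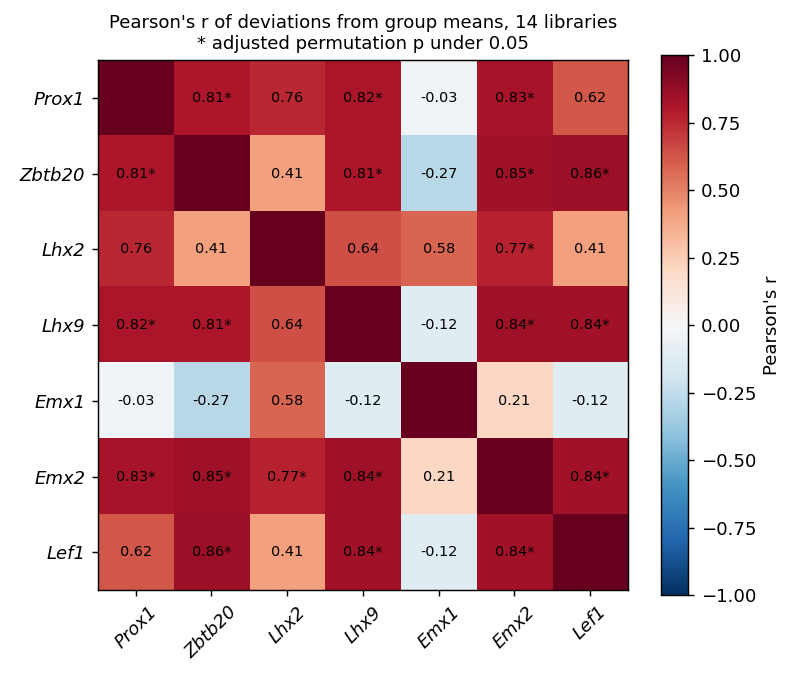
Pearson's r between the deviations of each pair of genes from their group means over the 14 libraries (colour and printed number, genes on both axes). Prox1, Zbtb20, Lhx9 and Emx2 have values from 0.81 to 0.85 with each other, and those of Emx1 run from -0.27 to 0.58.

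The nearly alike littermate pairs of the Dp(16)1Yey/+ line show the size of this spread among wild types. Replicates 0 and 1 had on average 7566 normalized fragments of Zbtb20 and replicates 2 and 3 had 2400, a ratio of 3.15, farther from 1 than that of 98.98% of 11244 named loci. The ratio was 2.10 for Lef1, 1.58 for Lhx9, 1.57 for Prox1 and 1.47 for Emx2, and 1.09 and 1.03 for Lhx2 and Emx1. In the same pairs the hem genes Wnt8b and Wnt3a had ratios of 3.83 and 3.57, the proliferation gene Mki67 1.75, and Mef2c, which marks maturing cortical and pyramidal neurons, 0.378. The part of these genes in the ratios of the members was not tested.

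The named loci whose values were most like those of each member over the 14 libraries are given as a description, by Pearson's r of log2 values among 11244 loci with a mean of at least 100. Prox1 was closest to Pde3a (0.98), a phosphodiesterase gene, to Slc1a2 (0.96), the glial glutamate transporter gene, and to Rerg (0.96). Zbtb20 was closest to the rows named Tigit (0.98) and Ifi203 (0.97) and to Palmd (0.95). Lhx9 was closest to Pard3b (0.97), Ak4 (0.95) and Irs1 (0.94), and Emx2 to the Wnt ligand gene Wnt5a (0.95), the Wnt receptor gene Fzd7 (0.94) and Irs1 (0.92), so that Irs1, a transducer of insulin signals, was among the 3 closest for both. Lef1 was closest to Gldc (0.97), which encodes an enzyme of glycine breakdown, Ltbp1 (0.96) and Nhlh1 (0.95), a neuronal helix-loop-helix gene. Lhx2 was closest to Igfbpl1 (0.97), Ganab (0.96) and Trp53bp2 (0.95), and Emx1 to Inhbb, Erf and Srsf6 (0.95 each).

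The genes around the members were read from lists of their pathways. None of the listed genes passed in either model, where 0% of loci did. Of the signals of the hem and medial pallium, 13 of 15 could be tested. In Dp(16)1Yey/+ mice 11 were lower and 2 higher, with 0 unadjusted p-values under 0.05. Their median log2 fold change was -0.44 beside 0.03 over all loci and -0.05 over named loci alone. Without the library labelled replicate 1, all 13 were lower, with a median of -0.41. The Wnt receptor gene Fzd9 had 123 ± 44.5 normalized fragments there and 171 ± 31.0 in the littermates, a difference of -0.52 on the log2 scale. Bmp6, a secreted Bmp, stood at 13.9 ± 6.05 against 25.8 ± 13.9, and Rspo2, which enhances Wnt signals, at 314 ± 161 against 452 ± 190. In 189N3 mice 10 of 13 were lower, with a median of -0.10, and Wnt3a, the Wnt of the hem, was at 26.6 ± 9.49 and in the littermates at 43.3 ± 11.2, a difference of -0.71 on the log2 scale.

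Of the partners and targets of Wnt transcription, the genes beside Lef1 in that pathway, 8 of 12 were lower in Dp(16)1Yey/+ mice, with a median of -0.26 (9 of 12 and -0.30 without the library labelled replicate 1), and 4 of 12 in 189N3 mice, with a median of 0.03. Axin2, a target of the pathway that also dampens it, stood at 433 ± 163 (n = 4, SD) in Dp(16)1Yey/+ mice against 603 ± 136 (n = 4, SD), and Nkd1, another such target, at 207 ± 64.0 against 279 ± 33.0. Tcf7l2, a relative of Lef1, was the 1 gene of this list with an unadjusted p-value under 0.05 in 189N3 mice (limma, adjusted p-value 1.000), at 85.3 ± 14.5 (n = 3, SD) against 136 ± 13.5 (n = 3, SD). In the Dp(16)1Yey/+ model it stood at 78.6 ± 30.2 against 83.3 ± 18.3.

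Genes of the dentate granule lineage, which Prox1 specifies, did not share its direction in every case. Among Dp(16)1Yey/+ mice 6 of 8 were lower, with a median of -0.26, or -0.13 without the library labelled replicate 1, while Dsp, a desmosome gene used as a dentate marker, stood at 81.8 ± 51.0 against 36.6 ± 8.497 (log2 fold change 0.99, unadjusted p-value 0.0173 and adjusted p-value 0.909 in limma). In 189N3 mice 5 of 9 were higher and 4 lower, with a median of 0.00, and Dsp stood at 46.6 ± 21.8 against 147 ± 122 (log2 fold change -1.35, unadjusted p-value 0.0188 and adjusted p-value 1.000 in limma). Genes of Ammon's horn were higher in 189N3 mice in 11 of 11 cases, with a median of 0.31 and 2 unadjusted p-values under 0.05. Mef2c, 1 of these, stood at 12439 ± 4179 against 7434 ± 3021, and its row also holds another transcript and is uncertain. For Dp(16)1Yey/+ mice 9 of 11 were lower, with a median of -0.30 (8 of 11 and -0.36 without the library labelled replicate 1). Wfs1, a marker of field CA1, was the 1 with an unadjusted p-value under 0.05, at 46.6 ± 9.11 against 82.7 ± 37.3, and Grik4, a kainate receptor subunit gene of field CA3, stood at 92.5 ± 60.2 against 142 ± 6.11.

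Among 14 LIM homeodomain relatives and cofactors of Lhx2 and Lhx9, 10 were lower in Dp(16)1Yey/+ mice, with a median of -0.19 (9 and -0.10 without the library labelled replicate 1), and 8 higher in 189N3 mice, with a median of 0.07. Lmo4, which competes for the cofactors of LIM homeodomain proteins, was at 1998 ± 838 in Dp(16)1Yey/+ mice against 2415 ± 255. Of 10 other regulators of the dorsal telencephalon, 6 were higher in Dp(16)1Yey/+ mice, with a median of 0.02, or 0.01 without the library labelled replicate 1. Nr2f2, a nuclear receptor gene of the caudal and ventral forebrain, was the 1 with an unadjusted p-value under 0.05, at 699 ± 255 against 1380 ± 764.

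Markers of other cell types moved with some of these differences, and their part in them was not tested. The values without a library and with littermate pairs averaged were chosen after the data had been seen, and averaging the pairs moved no list median in Dp(16)1Yey/+ mice by more than 0.07. In the Dp(16)1Yey/+ model 6 of 6 erythroid genes were higher than in the littermates, with a median of 1.23, or 0.68 without the library labelled replicate 1, and their summed values ran from 6152 to 48733 against 4586 to 17218. In 189N3 mice 6 of 6 were lower, with a median of -1.32, each with an unadjusted p-value under 0.05 (limma), and the sums ran from 13935 to 22232 against 33976 to 54440. Cajal-Retzius genes, whose cells arise in part from the hem, were lower in 6 of 6 cases in Dp(16)1Yey/+ mice, with a median of -0.35 (-0.30 without the library labelled replicate 1) and sums from 10463 to 24618 against 14317 to 25671, and in 4 of 6 in 189N3 mice, with sums from 12748 to 23833 against 17417 to 25744. Choroid plexus genes, from the tissue on the far side of the hem, were lower in 6 of 7 cases in Dp(16)1Yey/+ mice, with a median of -0.23 (-0.60 without the library labelled replicate 1) and sums from 318 to 2760 against 509 to 2256. Htr2c, a serotonin receptor gene of this tissue, was at 106 ± 50.4 against 218 ± 65.3 (log2 fold change -1.13, unadjusted p-value 0.00906 and adjusted p-value 0.909 in limma). In 189N3 mice they were higher in 4 of 7, with a median of 0.03 and sums from 557 to 6571 against 703 to 15076. Striatal genes were lower in 9 of 9 cases in Dp(16)1Yey/+ mice, with a median of -0.42. Without the library labelled replicate 1, 8 of 9 were lower, with a median of -0.92. In 189N3 mice 7 of 9 were higher, with a median of 0.33. The striatal sums lay between 2249 and 4965 in all libraries. Much of them came from Foxp1, whose row also holds Eif4e3 and whose group means ran from 1786 to 2444. Interneuron genes had medians of -0.15 (-0.20 without the library labelled replicate 1) and 0.02, with sums between 3279 and 8127. Thalamic and habenular genes, of which 3 could be tested, had medians of -0.37 (-0.23 without the library labelled replicate 1) and 0.17, with sums between 169 and 485. Pallial neuron genes had medians of -0.00 (-0.06 without the library labelled replicate 1) and 0.27, with sums between 20983 and 33060, but single genes of this list went different ways. In Dp(16)1Yey/+ mice Neurod6 was at 15085 ± 3840 against 9772 ± 929 (log2 fold change 0.60, unadjusted p-value 0.00841 and adjusted p-value 0.909 in limma), and Nrp2, a semaphorin receptor gene, at 4921 ± 3962 against 6789 ± 1304 (log2 fold change -0.90, unadjusted p-value 0.122). Radial glia and progenitor genes had medians of -0.06 (-0.12 without the library labelled replicate 1) and -0.21, and their sums ran from 36816 to 71400 in Dp(16)1Yey/+ mice against 39467 to 46655 in the littermates.

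Assembled isoforms gave no further call among the members. Of the isoforms of the 7 genes, 27 could be tested in 189N3 mice and 29 in Dp(16)1Yey/+ mice, and 0 passed in either, where 0.0366% and 0.0214% of all isoforms did. In each model 2 had an unadjusted p-value under 0.05, where 2.56% and 3.48% of all isoforms did. The leading isoform of Zbtb20 held 52.8% of the gene on average and between 48.3% and 58.2% in every library, while the gene itself had a 4.32-fold range. In Prox1 the leading isoform held 56.5% on average but between 20.7% and 70.1%, in Lhx9 46.0% and between 15.8% and 63.0%, in Emx2 51.5% and between 35.3% and 64.8%, and in Lhx2 40.4% and between 29.7% and 51.5%. Emx1 had 1 isoform. The 10 isoforms of Lef1 were shared more evenly, with 27.6% on average in the leading one. Isoform values are estimates from shared fragments, and their spread includes that of the assignment.

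Zbtb20 sat among other highly read loci. A locus inside its introns held 11465 normalized fragments on average, 2.62 times the Zbtb20 row, Gm15713, an antisense long noncoding RNA at chr16:43410518-43420196 on the minus strand, held 7348, 1.68 times, and the row named Tigit held 17108, 3.91 times. Tigit, an immune receptor gene, is annotated at chr16:43648867-43664146 on the minus strand, 6.27 kb past the end of Zbtb20, and its row followed Zbtb20 with r = 0.98 over the 14 libraries, against 0.81 and 0.78 for the other 2. Whether the row named Tigit holds reads of Zbtb20 was not tested, and its name is uncertain as a measure of Tigit. Its log2 fold changes were 0.01 and -0.46, near those of Zbtb20 at 0.02 and -0.45, while the intronic locus had -0.69 (SE 0.36) and -0.65 (SE 0.42) and Gm15713 -0.71 (SE 0.38) and -0.70 (SE 0.42), all with adjusted p-values of 0.909 or more in limma. If the library labelled replicate 1 was left out, the values in Dp(16)1Yey/+ mice were -0.19 for the row named Tigit, -0.49 for the intronic locus and -0.56 for Gm15713.

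**Figure D5:**
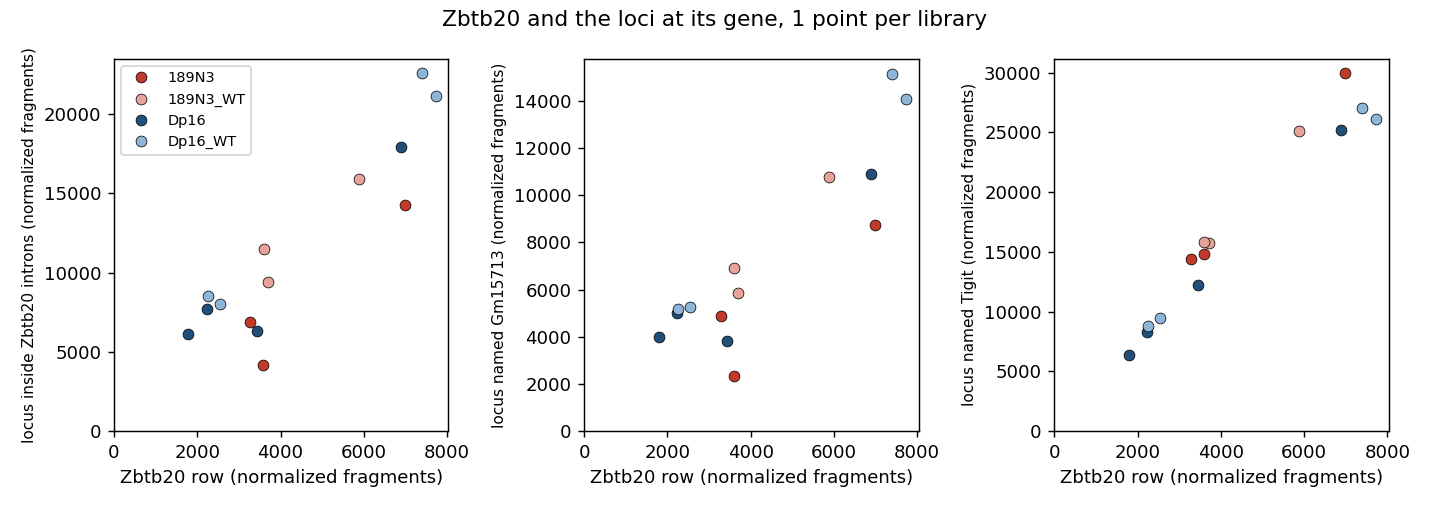
Normalized fragments in each of the 14 libraries of Zbtb20 (x axis) and of the intronic locus, Gm15713 and the row named Tigit (y axis, one panel for each), coloured by group (Dp16 is Dp(16)1Yey/+). The row named Tigit rises with Zbtb20 along a line, from 6399 to 30010, and the other loci scatter more.

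Loci on the opposite strand were also found at the other members. Emx2os, the antisense gene that overlaps Emx2 by 264 bases, held 61.8% of the value of Emx2 (r = 0.79 over the 14 libraries), and the opposite-strand locus at Prox1 held 28.5% (r = 0.80), where the annotated Prox1os overlaps by 419 bases. At Lef1 there were 2 such loci with 21.7% and 38.0% of its value (r = 0.92 each), at Lhx9 1 with 33.3% (r = 0.79), at Lhx2 2 with 45.01% and 60.8% (r = 0.43 and 0.47), and at Emx1 1 that held 419 normalized fragments on average, 3.30 times the gene itself (r = 0.44). By deviations from group means, r was 0.91 for each Lef1 locus, 0.85 at Lhx9, 0.79 for Emx2os and 0.80 at Prox1. By the same measure it was 0.12 and 0.09 at Lhx2 and -0.24 at Emx1. The libraries were made to keep strand, but it is not stated whether the counting used it. Values of a gene and of its opposite-strand partner are thus uncertain where they overlap.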

How the data were processed

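Hippocampal RNA was sequenced by the submitters in 14 libraries as paired reads of 100 bp from stranded total RNA libraries (1 µg input, although the labels list polyA RNA). The authors mapped reads to mm10 with TopHat and Bowtie, merged Cufflinks assemblies and quantified loci while correcting for fragment bias and for multiply mapped reads, in versions not given in the sources used here. The deposited signal values are fragments per locus divided by 1 size factor for each library, and the deposited isoform signal values are estimated fragments on the same scale. All values under 1000 fragments came out whole within 0.1 of a fragment (100% in each library), so that fragments could be recovered, 20809135 to 29098454 per library.

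Rows were named by matching each to the map locus whose isoforms sum to it in all 14 columns, with map codes = and j, and for each symbol the row with the highest mean was kept. Values were tested as log2(value + 1) in limma 3.58.1 (R 4.3.3) with an intensity trend, over loci with a mean of at least 10, separately for each model and its littermates, with Benjamini-Hochberg adjustment over all loci at 0.05. Fold changes on this scale understate those of low genes, and p-values measure the spread between these samples. The difference between the models was an interaction over all groups. Single genes were tested by exact two-sided permutation, and correlations by 100000 permutations within groups (Python 3.11.15, SciPy 1.17.1), as Pearson's r and Spearman's rho of deviations from group means. As alternatives, edgeR 4.0.16 and DESeq2 1.42.0 were run on recovered fragments. Other alternatives were other pseudocounts, filters, scalings, a replicate block, libraries left out, no trend, named loci alone and averaged littermate pairs. The scripts were tested on simulated data. RefSeq windows on GRCm38 and GENCODE vM21 gave sequences and positions.

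The 7 members, the pathway and marker lists and the tests were chosen with earlier results of these data known. Genes named from a list were the at most 4 with the smallest unadjusted p-value in either model or, for markers, the highest mean, and for each member the 3 most alike loci. No locus was found for Gdf7, Drd1, Rora and Hba-a1 under this rule, and the rows of Mef2c, Foxp1, Clic6 and Neurod1 are shared with other transcripts. Some listed genes are not reported here by name.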

Additional observations from a re-analysis of the deposited data

Results flagged for a closer look

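Lhx9 in Dp(16)1Yey/+ mice held 1 library far from the others. Its values were 498, 403, 1451 and 328 normalized fragments, and the gap between replicate 2 and the nearest library was 0.848 of the whole range of the group, above the critical value of 0.829 for 4 samples (Dixon's test at 95%). Of 14 groups of 4 libraries examined in this way, this was the 1 that passed. For independent groups chance gives about 1 in 20. These groups share libraries and hold genes that move together, and those of the littermates hold nearly alike libraries. Thus 1 of 14 cannot be set against that rate. Replicate 2 was also the highest library of its group for Prox1, Zbtb20, Lhx2, Emx2 and Lef1. Without it the log2 fold change of Lhx9 was -1.02 (SE 0.24, adjusted p-value 0.368 in limma) instead of -0.56.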

How the results depend on the processing

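No alternative called a member in either model or in the difference between the models. Over all loci, 189N3 mice gave 0 calls, but 3 with median-ratio size factors, 15 in DESeq2 and 0 to 28 with a library left out (28 without littermate replicate 1, 2 without littermate replicate 0). Dp(16)1Yey/+ mice gave 0, but 8 in DESeq2 and 0 to 3 with a library left out (3 without the library labelled replicate 1, whose omission also gave 1 call, in a range of 0 to 1, for the difference between the models). Between the wild-type groups, 1351 calls became 614 without a filter, 40 in 1 fit of all groups, 85 without the trend, 3262 in DESeq2, 28 with nearly alike libraries averaged, 2061 over named loci alone and 13 to 78 with any 1 of the 7 libraries left out. The cause was not tested. The median log2 fold change of the members in Dp(16)1Yey/+ against littermates ran from -0.69 without replicate 2 to -0.16 without littermate replicate 0.

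With the replicate number as a block, 72 loci were called in 189N3 mice, 0 in Dp(16)1Yey/+ mice and 75 between the wild-type groups (where littermate replicate 3, which has no partner, adds nothing), and Prox1 in Dp(16)1Yey/+ mice had an unadjusted p-value of 0.0412 (limma, adjusted p-value 1.000). Samples with the same number did not deviate together (correlations between -0.45 and -0.03), so the numbers do not pair the samples.

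List medians, neighbouring loci and permutation tests without the library labelled replicate 1 or with littermate pairs averaged were added after the data had been seen.

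Emx1 and Lef1 rest on few fragments, from 62 and 80 upwards, and with 3 libraries against 3 no exact test of a single gene can go below 0.10.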
